A study of Mus musculus with 4 samples.

Results

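The 10 genes described here encode the mouse MHC class II molecules, the proteins that load them with peptide, and the regulator that switches them on. They are H2-Aa, H2-Ab1, H2-Eb1, Cd74, H2-DMa, H2-DMb1, H2-DMb2, H2-Oa, H2-Ob and Ciita, chosen by symbol, and all 10 were found among the 32287 features of the count tables. Blood leukocytes came from C57BL/6J mice aged 10 weeks that had been inoculated with acute lymphoblastic leukaemia (ALL) and treated with dasatinib, a tyrosine kinase inhibitor. Blood was taken after 1 week of treatment, when all mice were in remission, and treatment went on for 4 more weeks. Mice were classed by their state at day 100, which gave 6 Relapsed and 6 Cured mice. Frozen cells were thawed, sorted for live cells and pooled from 3 mice per library, giving 2 Relapsed and 2 Cured libraries of droplet single-cell 5′ RNA sequencing. The pool is the replicate, and the files do not tie a cell to 1 of its 3 mice.

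MHC class II molecules show peptides from engulfed proteins to CD4 T cells, and B cells, dendritic cells, macrophages and some monocytes carry them. H2-Aa and H2-Ab1 encode the alpha and beta chains of I-A, and H2-Eb1 encodes the beta chain of I-E. Mice of C57BL/6 background lack a working I-E alpha chain gene, so they make no I-E at the cell surface although H2-Eb1 is transcribed. Cd74 encodes the invariant chain, which holds new class II molecules and blocks their groove. H2-M, made of H2-DMa with H2-DMb1 or H2-DMb2, swaps the last fragment of the invariant chain for peptide, and H2-O, made of H2-Oa and H2-Ob, inhibits H2-M. Ciita encodes the class II transactivator, which binds no DNA itself and is held at class II promoters by factors on the X and Y boxes.

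In the GENCODE annotation of GRCm38, 8 of the 10 genes lie together on chromosome 17, between 34092340 and 34316674, in the order H2-Oa, H2-DMa, H2-DMb2, H2-DMb1, H2-Ob, H2-Ab1, H2-Aa and H2-Eb1. Ciita lies on chromosome 16 (10480059 to 10528418). Exons of Ciita, H2-Oa and H2-DMa overlap a gene on the opposite strand (Dexi, BC051537 and Brd2). Promoter sequences from RefSeq (GRCm38.p6) were listed for 7 of the 10 genes and not for H2-Ab1, Cd74 and Ciita. Across the 250 bases before each start, on both strands, the X box, searched as AG, any 2 bases, AC, any base and GATG, was found in H2-Oa, H2-DMb1 and H2-Eb1, against 0.816% of 32851 promoters. A Y box spelled CCAAT, or its reverse ATTGG, was found in all 7 genes, against 33.9% of promoters, and both boxes together were found in 0.292% of promoters. H2-DMa had 2 listed promoters. The first of them held neither box, and the second held the Y box 198 to 194 bases before the start. The 55 bases that end in the Y box are shown for the genes of I-A, I-E and H2-O, with the X box and the Y box in capitals and each strand read as the gene is.

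H2-Aa (chr17:34287867-34287921, minus strand): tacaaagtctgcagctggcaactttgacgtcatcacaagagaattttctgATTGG
H2-Eb1 (chr17:34305758-34305812, plus strand): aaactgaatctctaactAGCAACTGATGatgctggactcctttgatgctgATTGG
H2-Oa (chr17:34092286-34092340, plus strand): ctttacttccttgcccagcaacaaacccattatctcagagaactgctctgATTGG
H2-Ob (chr17:34238798-34238852, plus strand): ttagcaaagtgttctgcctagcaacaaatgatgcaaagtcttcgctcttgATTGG

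The X box match of H2-Oa lies before its window, 141 to 131 bases before the start, with the Y box at 43 to 39. In H2-Eb1 the X box match lies closer to a Y box, at 92 to 82 against 59 to 55. Only exact matches to the letters were marked. Lower case therefore does not show that H2-Aa, H2-Oa or H2-Ob lacks an X box in its window. The H2-M beta genes are shown over 30 bases because monocytes and B cells differed in which of them they carried, with capitals marking the X box of H2-DMb1 and the same 11 bases of H2-DMb2.

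H2-DMb1 (chr17:34153086-34153115, plus strand): aggtttacctAGTAACTGATGatgctaggc
H2-DMb2 (chr17:34145115-34145144, plus strand): aggtttacctATTAACCGATGatgctaggc

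These 30 bases differed only at G2T and T7C, counted from the first base of the X box with the H2-DMb1 base first. G2T falls on a fixed letter of the motif and T7C on a free one, so H2-DMb2 is not a match. A motif match describes letters and is not a measured binding site. The part of these bases in the difference between monocytes and B cells was not tested.

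The 4 libraries held 3631 and 4383 barcodes in Relapsed and 3859 and 4284 in Cured replicates 1 and 2, with 7184045 to 10840397 UMIs (unique molecular identifiers, 1 per captured RNA molecule) each. Of 16157 barcodes 15439 were kept, and 14428 of these passed a marker gate into 5 classes. The gate asked for at least 3 markers of a lineage and at most 1 of each other lineage, and used none of the 10 genes. It gave 2121 to 3271 B cells, 228 to 392 T cells, 160 to 203 NK cells, 30 to 112 monocytes and 165 to 362 neutrophils per library. Levels are CPM, the usual depth scaling of UMIs by the summed UMIs of a class in a library, and are not scaled by gene length. Library pairs shared 20 to 29 barcodes. Relapsed replicate 1 stood apart: it held 279 of the 356 barcodes with under 200 genes, and haemoglobin transcripts stood at 3956 CPM in its B cells, against 218 to 432 CPM in those of the other 3 libraries. In its monocytes they stood at 314 CPM, against 0 to 5.90 CPM in the other 3. B cells were deeper in Cured libraries, with median UMIs of 1851 and 2024 in Relapsed and 2233 and 2342 in Cured B cells.

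B cells carried most class II RNA. The 10 genes took 3.53% and 4.40% of all B cell UMIs in the Relapsed libraries and 4.36% and 4.56% in the Cured libraries. H2-Aa stood at 5727 and 6828 CPM in Relapsed and 6730 and 7155 CPM in Cured B cells. For H2-Ab1 the levels were 3207 and 3587 CPM in Relapsed and 3292 and 3722 CPM in Cured B cells. H2-Eb1, whose partner chain this strain lacks, stood at 3960 and 4682 CPM in Relapsed and 4512 and 4882 CPM in Cured B cells. The I-A and I-E transcripts were in nearly every B cell: 94.8% to 99.7% of B cells thinned to 1000 UMIs had a UMI of H2-Aa, H2-Ab1 or H2-Eb1, each taken alone. Cd74, which lies on chromosome 18 (60803848 to 60812652), reached 20092 and 26087 CPM in Relapsed and 26209 and 26834 CPM in Cured B cells, and at least 99.97% of thinned B cells held it.

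**Figure D1:**
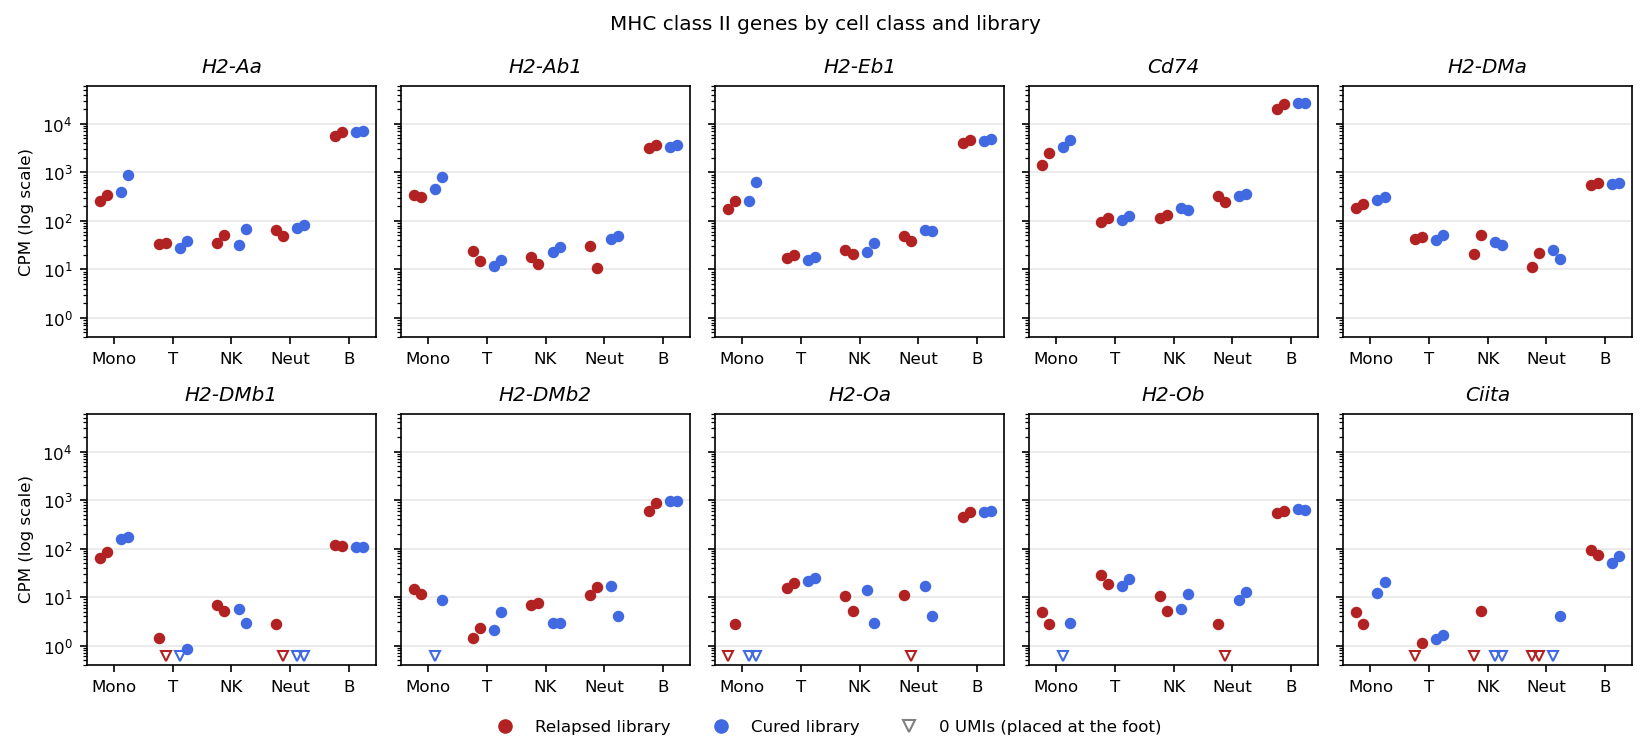
Level of each of the 10 genes (CPM, log axis) in monocytes, T cells, NK cells, neutrophils and B cells; each point is 1 library, Relapsed in red and left of Cured in blue, and open triangles mark 0 UMIs. Points of H2-DMb1 in monocytes lie around those in B cells, while H2-DMb2, H2-Oa and H2-Ob are at 15 CPM or less in monocytes and above 400 CPM in B cells.

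The H2-M and H2-O genes were present in all 4 B cell sums. H2-DMa stood at 551 and 593 CPM in Relapsed and 564 and 611 CPM in Cured B cells, and H2-DMb2 at 601 and 889 CPM in Relapsed and 955 and 976 CPM in Cured B cells. H2-Oa stood at 438 and 561 CPM in Relapsed and 565 and 582 CPM in Cured B cells, and H2-Ob at 549 and 598 CPM in Relapsed and 647 and 615 CPM in Cured B cells. H2-DMb1, the other H2-M beta gene, was at 118 and 113 CPM in Relapsed and 109 and 108 CPM in Cured B cells. Ciita, a transcription regulator, stood at 93.5 and 72.2 CPM in Relapsed and 51.02 and 70.7 CPM in Cured B cells.

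Monocytes carried the I-A, I-E and invariant chain transcripts at a lower level than B cells, and the gap differed by gene. Relative to B cells of the same library, median levels in monocytes were 5.38% for H2-Aa, 12.2% for H2-Ab1, 5.49% for H2-Eb1 and 11.1% for Cd74. H2-DMa reached 42.3% of the B cell level, ranging over libraries between 33.8% and 50.1%. In the test of monocytes against B cells (edgeR quasi-likelihood, library as a block, Benjamini-Hochberg over 5677 genes), 9 of the 10 members were lower, where 35.3% of all genes were lower. The log2 fold changes were -4.22 (SE 0.19) for H2-Aa, -3.30 (SE 0.17) for H2-Ab1, -4.15 (SE 0.17) for H2-Eb1 and -3.54 (SE 0.20) for Cd74. That of H2-DMa was -1.65 (SE 0.10, edgeR adjusted p = 4.55e-35). The tests against B cells scale the sums by TMM factors, which CPM here lacks. Their log2 fold changes therefore need not match ratios of CPM.

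H2-DMb1 was the member that was not called lower in monocytes. It stood at 63.7 and 85.6 CPM in Relapsed and 157 and 177 CPM in Cured monocytes, which lie around the 108 to 118 CPM of B cells. By CPM Relapsed monocytes lay below and Cured monocytes above B cells, with medians of 121 CPM in monocytes and 111 CPM in B cells. On the TMM scale of the test its log2 fold change in monocytes against B cells was -0.32 (SE 0.16, edgeR adjusted p = 0.0662). Without Cured replicate 2 it was -0.76 and past the threshold. H2-DMb2 was nearly absent from monocytes, at 14.7 and 11.4 CPM in Relapsed and 0 and 8.84 CPM in Cured monocytes, or 10 UMIs in all. Its log2 fold change in monocytes was -6.78 (SE 0.19, edgeR adjusted p = 2.56e-81).

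Which H2-M beta transcript was counted differed by class. H2-DMb2 made up 7.94% of the H2-DMb1 and H2-DMb2 UMIs of monocytes (10 of 126, exact 95% interval 3.87% to 14.1%) and 88.8% of those of B cells (22372 of 25194). Over libraries the share ranged between 0% and 18.8% in monocytes and between 83.5% and 90.1% in B cells, so no library of either class overlapped. The 16 cells with dendritic cell markers had 2 of 44 such UMIs from H2-DMb2. Counting of these near-copies is uncertain where they are identical: of the 50-base stretches of H2-DMb1 transcripts 22.7% also occur in H2-DMb2 transcripts, and 21.2% the other way. The intervals cover counting error only.

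**Figure D2:**
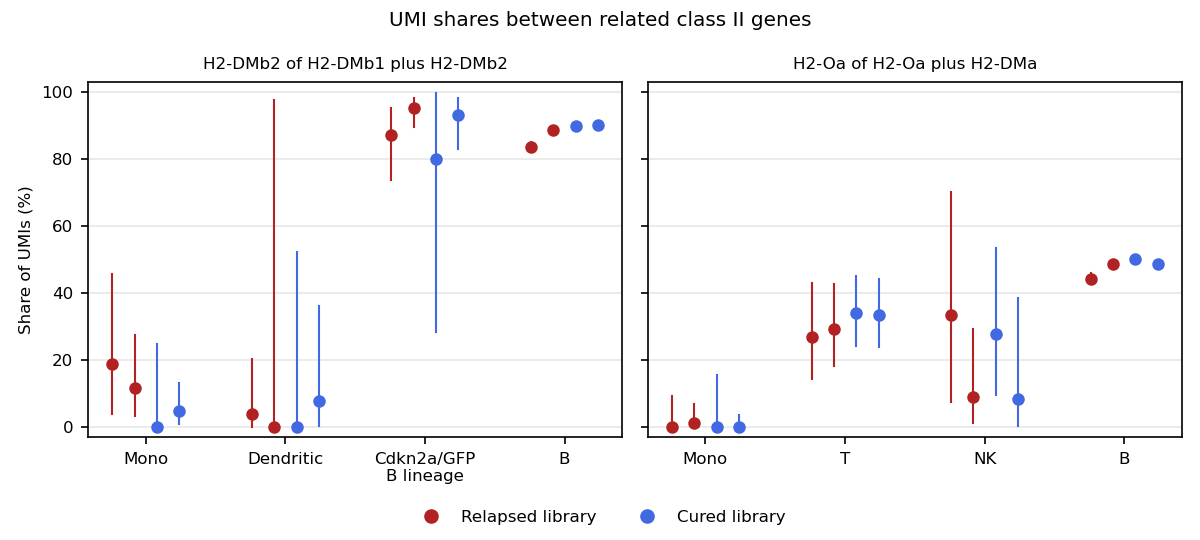
Share of UMIs (%) that came from H2-DMb2 among H2-DMb1 and H2-DMb2 (left) and from H2-Oa among H2-Oa and H2-DMa (right), by class and library, with exact 95% intervals for counting error; Relapsed in red, left of Cured in blue. H2-DMb2 gives at most 18.8% in any monocyte library and at least 83.5% in any B cell library.

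The H2-O genes were near 0 in monocytes and low in T cells. H2-Oa had 1 UMI and H2-Ob 3 UMIs over all 302 monocytes, so H2-Oa made up 0.412% of the H2-Oa and H2-DMa UMIs of monocytes (1 of 243), against 48.4% in B cells. The 16 cells with dendritic cell markers had 12 UMIs of H2-Oa among 64 of H2-Oa and H2-DMa. T cells held H2-Oa at 15.6 and 19.5 CPM in Relapsed and 21.0 and 25.01 CPM in Cured libraries. They held H2-Ob at 28.3 and 18.3 CPM in Relapsed and 16.8 and 23.3 CPM in Cured libraries. For both H2-O genes the order of medians ran B cells, T cells, NK cells, neutrophils and monocytes, and the libraries of NK cells, neutrophils and monocytes overlapped.

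B cells made up most of each library, so free B cell RNA can enter droplets of other classes, and the levels there were set beside 14 other B cell transcripts that the gate did not use (such as Ighm, Igkc, Cd22 and Pax5). Summed, these B transcripts stood at a median of 2.82% of their B cell level in T cells, 1.72% in NK cells, 2.47% in monocytes and 3.19% in neutrophils. Leaving out the immunoglobulin genes gave 1.52%, 1.15%, 1.99% and 2.49% in the same order. H2-Aa, H2-Ab1, H2-Eb1 and Cd74 lay below that in T cells, at medians of 0.528%, 0.420%, 0.396% and 0.450% of the B cell level. In NK cells the 4 genes were at 0.563% to 0.683%, and in neutrophils at 1.12% to 1.31%, a like share for all 4 within each class. No T cell, NK cell or neutrophil held more than 3 UMIs of H2-Aa, H2-Ab1 and H2-Eb1 together. These medians are under those of the summed B transcripts and are not read as expression.

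H2-DMa in T cells lay above the summed B transcripts. T cells had H2-DMa at 42.5 and 46.9 CPM in Relapsed and 40.5 and 50.02 CPM in Cured libraries, a median of 7.82% of the B cell level (range 7.18% to 8.18%). Its counting interval was above the summed B transcripts in all 4 libraries, by 2.26 to 4.27 times. The 14 B transcripts themselves ranged from 0% to 14.9% in T cells, and by median Ighm was the 1 of them above H2-DMa. A UMI of H2-DMa was found in at least 12.7% of the T cells of each library, at median depths of 3091 to 3590 UMIs, and in 1.11% to 2.76% of neutrophils, at 929 to 1125 UMIs. Thinned to 1000 UMIs, the shares were 3.63% to 6.10% of T cells and 1.25% to 2.02% of neutrophils. Thinning keeps only cells with at least 1000 UMIs, which were 93.4% to 98.5% of T cells and 40.6% to 59.2% of neutrophils. In NK cells H2-DMa was above the summed B transcripts in 3 of 4 libraries, with 50 UMIs in all. H2-Oa in T cells was above the B transcripts without immunoglobulin genes in 3 of 4 libraries and above the full sum in 0. H2-Ob in T cells was above either sum in 1 of 4 libraries. Single genes made up most of both sums in T cells. Ighm gave 665 of the 997 UMIs of the full sum, and Ralgps2 gave 83 of the 131 UMIs without immunoglobulin genes. By median Ighm and Ralgps2 (6.36%) lay above H2-Oa (3.63%) and H2-Ob (3.43%). The rest of the 14 B transcripts lay below both. The source of the H2-Oa and H2-Ob UMIs was not tested. In the test against B cells, T cells were lower for all 10 members (where 28.2% of all genes were lower), NK cells for all 10 (35.5%) and neutrophils for all 10 (43.3%). H2-DMa had the smallest of these falls in each of the 3 classes, at -3.56 (SE 0.10) in T cells, -4.56 (SE 0.14) in NK cells and -4.90 (SE 0.19) in neutrophils.

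**Figure D3:**
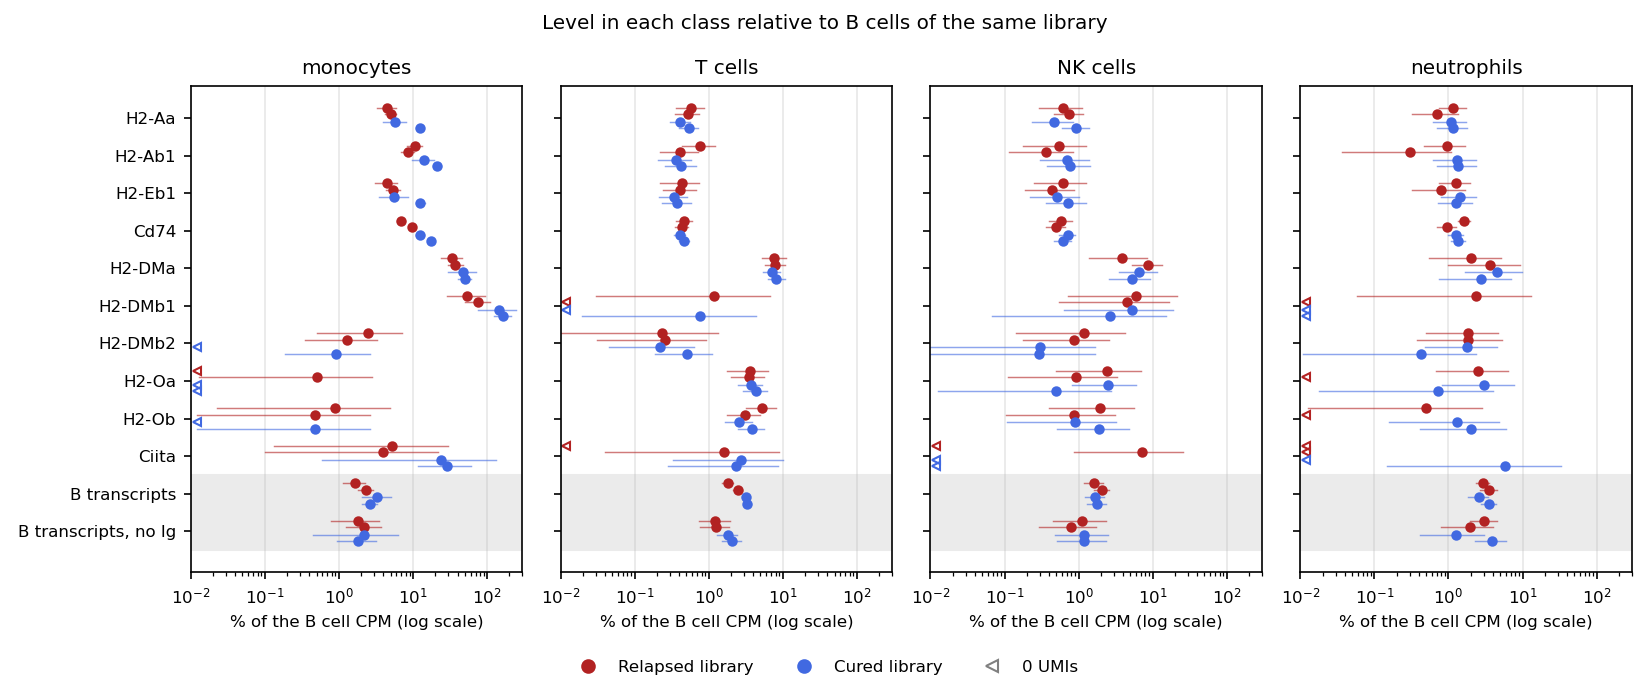
Level of each gene in monocytes, T cells, NK cells and neutrophils as a percentage of the B cell CPM of the same library (log axis), with 95% counting intervals; Relapsed in red above Cured in blue, and the shaded strip at the foot shows the summed B transcripts with and without immunoglobulin genes. In T cells H2-Aa, H2-Ab1, H2-Eb1 and Cd74 lie left of the summed B transcripts and H2-DMa right of them, and in monocytes the 6 genes from H2-Aa to H2-DMb1 lie right of them.

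In monocytes the counting interval was above the summed B transcripts in 4 of 4 libraries for H2-Ab1, Cd74, H2-DMa and H2-DMb1, and in 3 of 4 for H2-Aa and H2-Eb1. Against the sum without immunoglobulin genes it was above in 4 libraries for the first 4 genes and in 2 for H2-Aa and H2-Eb1. Of the single B transcripts Ighm reached a median of 14.0% in monocytes and Cd22 7.48% (on 9 UMIs), both above H2-Aa at 5.38% and H2-Eb1 at 5.49%. Against the full sum the interval was above in 1 library for Ciita and in 0 for H2-DMb2, H2-Oa and H2-Ob. Few cells carried most of these UMIs. Of 302 monocytes 30 had 10 or more UMIs of H2-Aa, H2-Ab1 and H2-Eb1 together, and these 30 held 1167 of the 1340 such UMIs of the class. Dendritic cell markers were present in 6 of the 30 and in 4 of the other 272, and B cell markers in 4 of the 30 and in 48 of the other 272. The part of dendritic cells in these UMIs was not tested.

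Class II UMIs were counted in both monocyte subsets, and single cells carried much of them. Classical-like monocytes (66 cells, more of Ly6c2, Ccr2 and F13a1 than of the other subset's markers) had a median of 1485 CPM for H2-Aa, H2-Ab1 and H2-Eb1 summed. Non-classical-like monocytes (222 cells, more of Treml4, Ear2, Adgre4, Nr4a1 and Ace) had 790 CPM, and the libraries overlapped (918 to 2745 CPM against 649 to 2225 CPM). In classical-like monocytes 1 cell held 64 of 66 and 83 of 153 of these UMIs in Relapsed libraries and 36 of 52 and 193 of 306 in Cured libraries. In Cured replicate 2, 265 of the 306 lay in cells with a dendritic cell marker. In non-classical-like monocytes the highest cell held 28 of 90 and 80 of 147 in Relapsed libraries and 18 of 34 and 166 of 461 in Cured libraries. In Cured replicate 2, 205 of the 461 lay in cells with a B cell marker. H2-DMa was at 195 to 469 CPM in classical-like and 110 to 256 CPM in non-classical-like cells. H2-DMb1 was at 69.5 to 323 CPM in classical-like and 25.7 to 101 CPM in non-classical-like cells.

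B lineage cells with a UMI of Cdkn2a or of the GFP sequence in the feature list were kept apart as possible leukaemia cells, whose identity was not tested. They numbered 32 and 67 in Relapsed and 3 and 31 in Cured libraries. Among them H2-Aa stood at 800 and 798 CPM in Relapsed and 3098 and 1059 CPM in Cured libraries, and H2-Ab1 at 638 and 535 CPM in Relapsed and 1807 and 662 CPM in Cured libraries. Cd74 stood at 10064 and 15695 CPM in Relapsed and 19424 and 13989 CPM in Cured libraries, where Cured replicate 1 rests on 3 cells. In the libraries with over 3 such cells, the highest H2-Aa level of these cells, 1059 CPM, lay below the lowest in B cells, 5727 CPM. H2-DMb2 gave 92.5% of their H2-DMb1 and H2-DMb2 UMIs.

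Among B cells the 10 genes differed little between subsets gated by maturity markers. Transitional-like B cells (Cd93 or Vpreb3, no Fcer2a or Cr2) and mature-like B cells (the reverse) were compared with the library as a block. They numbered 260 to 421 and 815 to 1292 of the 2121 to 3271 B cells per library, and the other B cells were in neither subset. The gate rests on the presence of a UMI, so a cell with an uncounted marker may be misplaced. Log2 fold changes of the members lay between -0.07 and 0.08, and 0 of 10 were called by edgeR, where 0.966% of 7351 genes were. Cd74, at 0.03, was the 1 member with an unadjusted p under 0.05 (0.0212), where 8.23% of all genes had one. Summed H2-Aa, H2-Ab1 and H2-Eb1 had medians of 14566 CPM in transitional-like and 14852 CPM in mature-like cells. Of the 33 other class II pathway genes tested, Ifi30, the thiol reductase that unfolds antigens, was called higher in transitional-like cells, at a log2 fold change of 0.60 (SE 0.06, edgeR adjusted p = 1.06e-14). Within single B cells thinned to 1000 UMIs, pairs of H2-Aa, H2-Ab1, H2-Eb1 and Cd74 had Spearman rho values of 0.0887 to 0.259 over 2026 to 3133 cells per library, which share depth and library and are weak.

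Outside the 10 genes, those whose levels ran most like the mean of H2-Aa, H2-Ab1, H2-Eb1 and Cd74 over the 20 class and library sums were led by Cd22, a B cell inhibitory receptor, at a Pearson r of 0.960 among 5093 genes. Snx9 at 0.945 and Pold4 at 0.943 came next, then Cd40, the costimulatory receptor by which T cells activate B cells, at 0.941. Bcl11a, Swap70, Pkig, Cd81, Dennd5b and Pafah1b3 lay between 0.927 and 0.940. None of them was a gate marker. The sums of a class share its cell type, so r describes the classes and carries no test. Of the members not in that mean, H2-DMa followed it at 0.924 and H2-DMb2 at 0.913, H2-DMb1 at 0.876, H2-Ob at 0.790 and H2-Oa at 0.754. Ciita has no value, since only genes with a mean of at least 20 CPM over the sums were ranked.

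The study compared mice that relapsed with mice that were cured. In B cells none of the 10 genes was called between the outcomes. By edgeR 0 of 10197 genes passed (0%), with 908 at an unadjusted p under 0.05 (8.9%), among them 0 of the 10, and 8 called by DESeq2. Cd74 averaged 23090 ± 4239 CPM in Relapsed and 26522 ± 442 CPM in Cured B cells (SD, n = 2 each), a log2 fold change of -0.19 (SE 0.11, edgeR adjusted p = 0.604). H2-DMb2 averaged 745 ± 204 CPM in Relapsed and 965 ± 14.8 CPM in Cured B cells, a log2 fold change of -0.37 (SE 0.17, edgeR adjusted p = 0.558). Ciita averaged 82.9 ± 15.04 CPM in Relapsed and 60.8 ± 13.9 CPM in Cured B cells, a log2 fold change of 0.44 (SE 0.20, edgeR adjusted p = 0.558). The other 7 genes lay between -0.19 and 0.10. Libraries of both outcomes did not overlap, with Relapsed lower, for 4 of the 10 (23.2% of all genes tested) and with Relapsed higher for 2 (22.3%).

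The B cell values moved with Relapsed replicate 1, the library high in haemoglobin, whose part in them was not tested. It was the lowest library for H2-Aa, H2-Ab1, H2-Eb1, Cd74, H2-DMa, H2-DMb2, H2-Oa and H2-Ob. Without it Cd74 was at -0.02, H2-DMb2 at -0.11 and H2-Oa at -0.02, and 13 genes passed in all. Without Relapsed replicate 2, so that Relapsed replicate 1 stood alone against Cured, 1899 genes passed in a fit whose spread came from the 2 Cured libraries and assumed that the lone library varies like them. Among them were H2-DMb2 at -0.69, Cd74 at -0.40, H2-Oa at -0.39, H2-Aa at -0.28 and H2-Eb1 at -0.25.

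**Figure D4:**
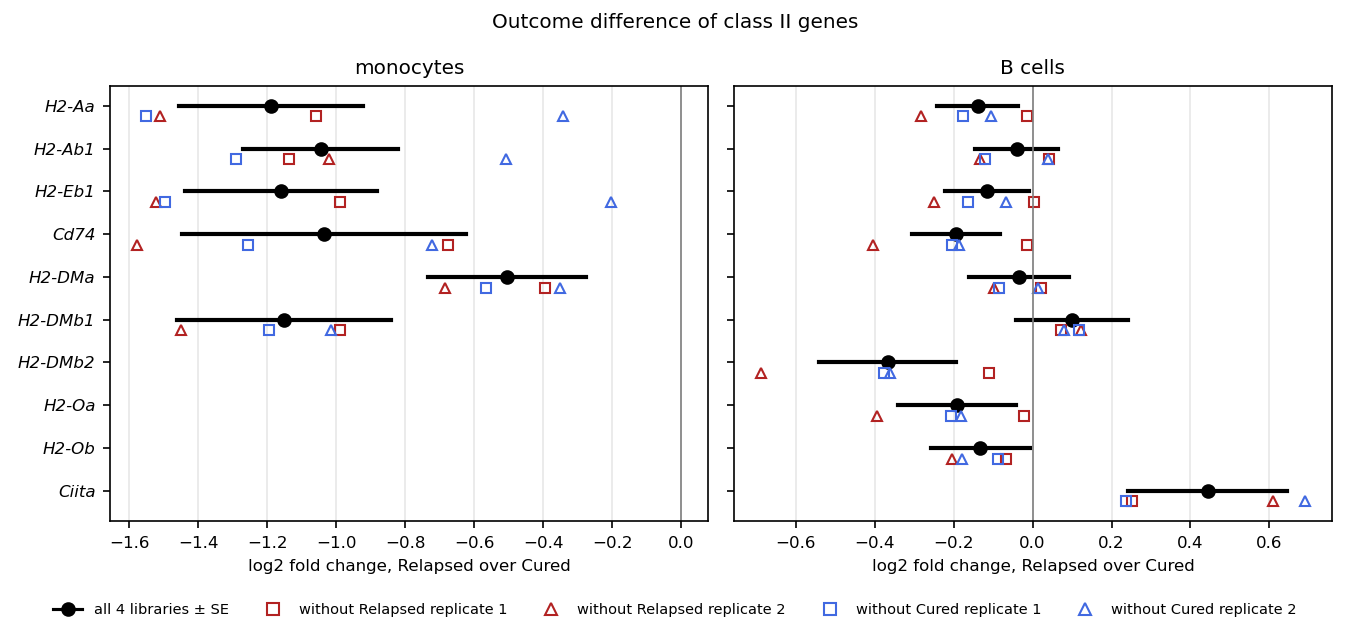
Log2 fold change of Relapsed over Cured in monocytes (left) and B cells (right), with black points and bars for all 4 libraries ± SE and open symbols for fits without 1 library; members without a point had too few UMIs in monocytes. All 6 monocyte values lie left of 0, and those of H2-Aa, H2-Ab1 and H2-Eb1 move towards 0 without Cured replicate 2.

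In the marker-gated monocytes the class II genes were at lower levels in Relapsed than in Cured libraries, without passing the threshold over all genes, and the direction depended on how monocytes were defined. With Leiden clusters in place of the marker gate, H2-Aa, H2-Ab1 and H2-Eb1 turned to 0.21, 0.026 and 0.58 on the log2 scale. That cluster also holds dendritic cells, and without them, an alternative chosen after seeing the data, the values were -0.47, -0.57 and -0.23. In the marker-gated monocytes H2-Aa stood at 255 and 342 CPM in Relapsed and 386 and 887 CPM in Cured monocytes. H2-Ab1 stood at 338 and 305 CPM in Relapsed and 459 and 787 CPM in Cured monocytes. H2-Eb1 stood at 176 and 251 CPM in Relapsed and 253 and 616 CPM in Cured monocytes. Cured replicate 2 was the highest library for all 3 genes, and the outcomes did not overlap. Cd74 was at 1387 and 2530 CPM in Relapsed and 3271 and 4723 CPM in Cured monocytes, and H2-DMa at 186 and 223 CPM in Relapsed and 266 and 307 CPM in Cured monocytes.

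By edgeR 2 of 3508 genes were called in monocytes (0.057%), neither of them a member. The log2 fold changes were -1.19 for H2-Aa (SE 0.27, edgeR adjusted p = 0.202), -1.04 for H2-Ab1 (SE 0.22, 0.202) and -1.16 for H2-Eb1 (SE 0.28, 0.202). They were -1.04 for Cd74 (SE 0.41, edgeR adjusted p = 0.909), -0.51 for H2-DMa (SE 0.23, 0.832) and -1.15 for H2-DMb1 (SE 0.31, 0.354). At an unadjusted p under 0.05 were 5 of the 6 members tested, all but Cd74, and 5.9% of all genes. Without the filter on low counts H2-Aa, H2-Ab1, H2-Eb1 and Cd74 passed the threshold, at -1.17, -1.03, -1.13 and -1.02. The other 4 members failed that filter. Libraries did not overlap, with Relapsed lower, for 7 of the 10 members, the 6 above and Ciita, where 16.8% of all genes tested did so, and with Relapsed higher for 1, H2-DMb2 (18.9%). Ciita had 1 UMI in each Relapsed library and 1 and 7 in the Cured libraries.

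The monocyte values rest on few cells. There were 70 and 112 monocytes in Relapsed and 30 and 90 in Cured libraries. The 2 cells richest in H2-Aa, H2-Ab1 and H2-Eb1 held 58.6% and 51.7% of these UMIs in Relapsed and 59.3% and 46.2% in Cured libraries. Cells with 10 or more such UMIs made up 5.71% and 6.25% of Relapsed and 10.0% and 17.8% of Cured monocytes, with wide exact 95% intervals (1.58% to 14.0% and 2.55% to 12.5% in Relapsed, 2.11% to 26.5% and 10.5% to 27.3% in Cured). Without Cured replicate 2 the log2 fold changes were -0.34 for H2-Aa, -0.51 for H2-Ab1 and -0.20 for H2-Eb1. In monocytes with 0 B cell and 0 dendritic cell markers, a gate chosen after seeing the data, they were -0.63, -0.55 and 0.00. Dendritic cell markers summed to 4.90 and 25.7 CPM in Relapsed and 24.1 and 14.7 CPM in Cured monocytes, with 1 to 3 of 9 detected per library. Detected in Relapsed monocytes were Cox6a2 in replicate 1 and Flt3, Cd209a and Xcr1 in replicate 2. In Cured monocytes these were Zbtb46 in replicate 1 and Flt3, Cd209a and Clec9a in replicate 2. Siglech, Ccr9 and Klk1 were at 0 in all 4 libraries. B cell markers summed to 53.9 and 31.4 CPM in Relapsed and 109 and 76.7 CPM in Cured monocytes, with 4 to 6 of 7 detected, also higher in Cured; their part in the difference was not tested.

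**Figure D5:**
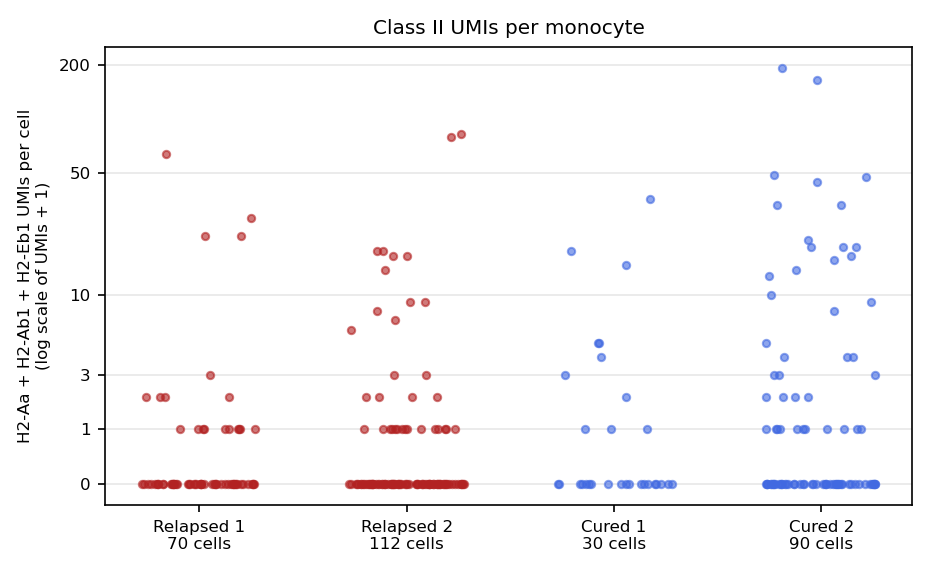
UMIs of H2-Aa, H2-Ab1 and H2-Eb1 summed per monocyte (log scale of UMIs + 1), by library; each point is 1 cell, Relapsed in red and Cured in blue. Most cells hold 0 UMIs, and the highest cell holds 64 and 83 UMIs in Relapsed and 36 and 193 UMIs in Cured libraries.

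The outcome difference of monocytes was set against that of B cells in 1 fit over both classes. For H2-Ab1 the monocyte log2 fold change minus that of B cells was -0.92 (SE 0.17, edgeR adjusted p = 7.42e-04), and for H2-Eb1 it was -0.96 (SE 0.19, edgeR adjusted p = 0.00785). These were 2 of 4 genes called among 9832 (0.0407%). H2-Aa at -0.97 (edgeR adjusted p = 0.329), Cd74 at -0.81 (1) and H2-DMb1 at -1.22 (0.145) were not called. At an unadjusted p under 0.05 were 5 of the 10 members and 3.01% of all genes. With Leiden clusters, a fit chosen after seeing the data, H2-Ab1 was 0.018 and H2-Eb1 0.66, and neither was called. The fit with gated classes took its spread from all genes together, not from each gene. Without Cured replicate 2 the H2-Ab1 and H2-Eb1 values were -0.43 and -0.04, and neither stayed past the threshold without Relapsed replicate 1 or Relapsed replicate 2.

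In T cells, NK cells and neutrophils 0 members were called between the outcomes by edgeR or DESeq2. Of all genes 0.122% were called by edgeR in T cells, 0.0692% in NK cells and 0% in neutrophils. At an unadjusted p under 0.05 were 0 members, against 8.57% of all genes in T cells, 7.45% in NK cells and 3.93% in neutrophils. Libraries did not overlap, with Relapsed lower, for 2 of the 10 members in T cells (22.3% of all genes tested), 2 in NK cells (20.7%) and 5 in neutrophils (13.9%). With Relapsed higher there were 0 in T cells (16.8%), 1 in NK cells (16.2%) and 0 in neutrophils (16.4%). Members that passed the filter numbered 7 in T cells, 3 in NK cells and 4 in neutrophils. The counts without overlap are over all 10 members, while the shares beside them are over genes that passed the filter. Those counts include Ciita on 5 UMIs in T cells, H2-DMb2 on 7 UMIs in NK cells and H2-Ob on 6 UMIs in neutrophils. H2-DMa in T cells averaged 44.7 ± 3.11 CPM in Relapsed and 45.3 ± 6.73 CPM in Cured libraries (SD, n = 2 each), a log2 fold change of 0.04 (SE 0.26).

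Of 37 other class II pathway genes in the files (proteases, regulators, turnover, costimulation, H2-Eb2 and CD74 partners), 0 were called between the outcomes in any of the 5 classes. Their median log2 fold change in monocytes was -0.19, with 15 of 21 negative, against a median of 0.00 over all genes. In B cells it was -0.11, with 24 of 34 negative, against -0.00 over all genes. There Relapsed replicate 1 was the lowest library for some of these genes (such as Ctss, Ctsb, Ctsz, Ctsh, Lgmn and Spi1). It was the highest for others (such as Nfya, Creb1 and Cxcr4). Ctss stood at 490 and 597 CPM in Relapsed and 596 and 589 CPM in Cured B cells. The part of that library in the B cell median was not tested. The smallest p in monocytes was that of Cxcr4, the chemokine receptor that pairs with CD74, at a log2 fold change of 1.13 (SE 0.43, edgeR adjusted p = 0.731).

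Between classes the pathway genes split. In monocytes against B cells 11 of 30 tested were higher and 13 lower, where 26.5% of all genes were higher and 35.3% lower. Of the 9 lysosomal enzymes tested 7 rose in monocytes, Lgmn fell by 0.58 (SE 0.15) and Ctsh, at -0.16 (SE 0.10), was not called. By CPM, without the TMM scaling of the test, Ctsh was higher in monocytes in each library. Its medians were 350 CPM in monocytes and 312 CPM in B cells. Lgmn was lower in monocytes except in Relapsed replicate 2, at 163 CPM against 138 CPM in B cells. Ctsb had a log2 fold change of 4.18 (SE 0.09), Ctsl of 2.24 (SE 0.34) and Ctss, which cuts the invariant chain, of 1.35 (SE 0.07). Ctss stood at 1926 and 1646 CPM in Relapsed and 2100 and 2040 CPM in Cured monocytes, against 490 and 597 CPM in Relapsed and 596 and 589 CPM in Cured B cells. Spi1, the PU.1 factor of myeloid and B cells, rose by 2.86 (SE 0.10), and Spib, its relative in B cells, fell by 5.20 (SE 0.49). H2-Eb2, another beta chain gene of the locus, fell by 6.78 (SE 0.49) and March1, a ligase that removes class II from the surface, by 1.08 (SE 0.16). In T cells 7 pathway genes were higher and 17 lower of 30 tested, where 25.4% of all genes were higher and 28.2% lower. Irf8, a transcription factor, fell by 5.23 (SE 0.20) in T cells. Among the classes its median was highest in NK cells, at 453 CPM, against 145 CPM in B cells, 170 CPM in monocytes and 4.82 CPM in neutrophils. In NK cells 6 were higher and 16 lower, where 19.2% of all genes were higher and 35.5% lower, and in neutrophils 10 were higher and 14 lower, where 33.3% were higher and 43.3% lower.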

How the data were processed

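The deposited values are raw UMI counts per gene and cell barcode, which the authors made with Cell Ranger 3.1.0 on mm10, per the submitters' processing notes; the annotation release is not given in the sources used here. Barcodes with under 200 genes or over 10% mitochondrial UMIs were left out. Cells with more than 1 marker of another lineage (529 cells) and cells of no lineage (333) were left out, and no doublet caller was run. UMIs were summed per library and class and tested with edgeR 4.0.16 (quasi-likelihood, TMM, filterByExpr) in R 4.3.3 at a Benjamini-Hochberg adjusted p of 0.05, with at least 20 cells per library. The outcome tests were checked on counts simulated with the same spread for every gene and no library standing apart. That setting is simpler than these data, so the check does not cover a library that stands apart or UMIs held by few cells. Alternatives included DESeq2 1.42.0, other gates and Leiden clusters (scanpy 1.11.5). Outcome p-values measure the spread between pools of mice, which edgeR estimates partly from all genes together. The weight of that shared part, in median prior degrees of freedom, was 7.37 in B cells and 124 in NK cells. Where the library was a block, p-values measure the spread left within libraries. There the weight was 173 between classes and 175 between B subsets, so the spread came mostly from all genes. An exact permutation test of 2 against 2 libraries cannot go below 0.333. Intervals cover counting error only. All members are named, and of the pathway genes those past a test or with the smallest p. The members and lists were chosen with earlier results of these data known.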

Additional observations from a re-analysis of the deposited data

Results flagged for a closer look

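The outcome difference of H2-Ab1 was -0.92 on the log2 scale in monocytes minus B cells, and that of H2-Eb1 was -0.96. Both are given because the difference between the classes itself passed the edgeR test over all genes. H2-Ab1 was at 338 and 305 CPM in Relapsed and 459 and 787 CPM in Cured monocytes, while its B cell levels overlapped between the outcomes. H2-Eb1 was at 176 and 251 CPM in Relapsed and 253 and 616 CPM in Cured monocytes, and its B cell levels overlapped too. In fits chosen after seeing the data, the H2-Ab1 value was -1.10 without Relapsed replicate 1 (edgeR adjusted p = 0.0574), -0.79 without Relapsed replicate 2 (1) and -0.43 without Cured replicate 2 (0.981). The H2-Eb1 value was -0.92 without Relapsed replicate 1 (edgeR adjusted p = 0.952), -1.19 without Relapsed replicate 2 (0.467) and -0.04 without Cured replicate 2 (1). With Leiden clusters in place of the marker gate, also chosen after seeing the data, both turned sign, to 0.018 for H2-Ab1 and 0.66 for H2-Eb1 (edgeR adjusted p = 1 each). Without Cured replicate 1 both stayed past the threshold, at -1.21 for H2-Ab1 and -1.38 for H2-Eb1.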

How the results depend on the processing

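The class differences held best: counts of genes called against B cells stayed within 1.5 times in every alternative run. H2-DMb1 in monocytes against B cells was 0.034 with Leiden classes. The outcome counts were unstable. Without a count filter 198 genes were called in B cells, 21 in T cells, 8 in NK cells, 11 in monocytes and 4 in neutrophils, and with a replicate block 175, 25, 7 and 5 in the first 4. The replicate numbers do not pair the libraries: deviations of same-numbered libraries correlated at -0.0502 to 0.0861. DESeq2 called 8 genes in B cells, 0 in T cells and 0 in NK cells, and RLE scaling 5 in T cells. Allowing 2 foreign markers gave 0 in T cells, 1 in NK cells and 10 in monocytes, and allowing 0 gave 0 in NK cells and 0.19 for Cd74 in neutrophils. Leiden classes gave 0 in T cells, 0 in NK cells and 5 in monocytes; thinned cells gave 0 in NK cells, and 13 between the B subsets with H2-Aa at 0.0050. Leaving out 1 library each gave 4 to 1899 genes in B cells, 1 to 340 in T cells, 0 to 173 in NK cells, 5 to 68 in monocytes, 0 to 21 in neutrophils, 3 to 8 for monocytes minus B cells and 20 to 50 between B subsets.

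Signs of some outcome differences turned. With Leiden classes monocyte H2-Aa was 0.21, H2-Ab1 0.026 and H2-Eb1 0.58. That cluster holds dendritic cells, and without them, an alternative chosen after seeing the data, the values were -0.47, -0.57 and -0.23. For monocytes minus B cells, Leiden classes (also added afterwards) gave 0.29 for H2-Aa, 0.018 for H2-Ab1, 0.66 for H2-Eb1 and 0.022 for Cd74. In monocytes with 0 B cell and 0 dendritic cell markers, also chosen afterwards, H2-Eb1 was 0.0020. Leiden T cells had H2-Aa at -0.069 and H2-DMa at -0.00041. Without a count filter monocyte H2-Aa (-1.17), H2-Ab1 (-1.03), H2-Eb1 (-1.13) and Cd74 (-1.02) passed the threshold. Leaving out 1 library gave ranges in B cells of -0.13 to 0.041 for H2-Ab1, -0.25 to 0.0042 for H2-Eb1 and -0.098 to 0.020 for H2-DMa. In T cells they were -0.25 to 0.0087 for Cd74, -0.082 to 0.56 for H2-Ob, -0.080 to 0.28 for H2-Aa and -0.069 to 0.14 for H2-DMa. In NK cells they were -0.54 to 0.48 for H2-Aa and -0.68 to 0.60 for H2-DMa. Between B subsets they were -0.015 to 0.012 for H2-Aa, -0.0097 to 0.024 for H2-DMb2, -0.041 to 0.0012 for H2-Ob and -0.0047 to 0.096 for H2-DMb1. The cause was not tested for any of these.

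Without immunoglobulin genes the summed B transcripts fell to 1.52% in T cells, 1.15% in NK cells and 2.49% in neutrophils; with Leiden classes they were 3.56% in monocytes. The outcome comparison of monocytes with 0 foreign markers was not run, since 1 library then had under 20 cells. Few monocytes limit the outcome comparison there, and genes at 0 to 3 UMIs show no difference at this depth.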
